A study of Homo sapiens with 17 samples.

Results

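The 8 human microRNA hairpins hsa-mir-532, hsa-mir-188, hsa-mir-500a, hsa-mir-362, hsa-mir-501, hsa-mir-500b, hsa-mir-660 and hsa-mir-502, named without the species prefix below, lie one after another in an intron of CLCN5 on chromosome X. They were chosen by their position in this cluster and not by their values. All 8 were among the 1282 hairpins of the table of 15 rescue libraries. Of the 294 hairpins tabled for the parental and dCTT libraries, 6 were members of the cluster, and mir-188 and mir-500b were not listed there.

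Small RNA of 17 to 30 nt was sequenced in 17 libraries of HCT116, an established human colon carcinoma line. The parental library (1 library) came from unedited cells, and the dCTT library (1 library) from cells in which CRISPR-Cas9 removed the CTT domain of DGCR8, labelled a functional knockout. The other 15 libraries all came from dCTT cells and so share this deletion. Each of 5 rescues has 3 libraries: mock, wild-type protein (WT), the C352A form, the P351A form, and the P351A form combined with something labelled ALA, a name left unexplained in the labels. Whether the dCTT cells are 1 clone, and how long the rescues were expressed, is not given in the sources used here. Such libraries hold no messenger RNA, so the level of the DGCR8 message cannot be read from them. The deletion and the rescue of DGCR8 were not checked here. The study's title concerns hemin and how Microprocessor reads the apical loop of a primary hairpin.

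Microprocessor is the nuclear complex of the nuclease DROSHA and the RNA-binding protein DGCR8 that cuts hairpins out of primary microRNA transcripts. DGCR8 binds heme, and both amino acid changes used here lie in its heme-binding region. Hairpins of a cluster can be carried by the same primary transcript, yet each is cut out separately, and the mature microRNAs from its 2 arms then have their own stability. CLCN5 encodes an endosomal exchanger of chloride and protons. Among the products of the cluster, miR-501-3p has been studied in neurons and miR-188 in the balance of bone and fat cell formation.

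On GRCh38 the cluster spans 11536 bases of the plus strand of chromosome X, from 50003148 to 50014683. In GENCODE release 29 it lies in the same intron of 3 of the 9 CLCN5 transcripts (numbered intron 3 in a pair of them and intron 2 in the third, from 49925315 to 50042315). The order is mir-532 (50003148 to 50003238), mir-188 (50003503 to 50003588), mir-500a (50008431 to 50008514), mir-362 (50008964 to 50009028), mir-501 (50009722 to 50009805), mir-500b (50010672 to 50010750), mir-660 (50013241 to 50013337) and mir-502 (50014598 to 50014683). The longest gap, 4842 bases, separates mir-188 from mir-500a, and mir-660 stands 2490 bases after mir-500b.

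The 15 mature sequences below are shown because their likeness bears on which hairpins can be told apart by reads (miR-660-5p is not shown). They are RefSeq sequences (GRCh38.p14), written 5′ to 3′, with the seed (bases 2 to 8, which pair with target messages) in capitals. The first set holds the products of mir-500a, mir-362, mir-501, mir-500b and mir-502, in order along the chromosome, among which the longest runs are shared by products of the same arm.
miR-500a-5p: uAAUCCUUgcuaccugggugaga
miR-500a-3p: aUGCACCUgggcaaggauucug
miR-362-5p: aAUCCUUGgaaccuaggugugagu
miR-362-3p: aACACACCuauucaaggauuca
miR-501-5p: aAUCCUUUgucccugggugaga
miR-501-3p: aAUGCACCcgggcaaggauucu
miR-500b-5p: aAUCCUUGcuaccugggu
miR-500b-3p: gCACCCAGgcaaggauucug
miR-502-5p: aUCCUUGCuaucugggugcua
miR-502-3p: aAUGCACCugggcaaggauuca

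The second set holds products of mir-532, mir-188 and mir-660, among them those of mir-532, whose level set it apart from mir-500a, mir-501 and mir-502 in the P351A libraries.
miR-532-5p: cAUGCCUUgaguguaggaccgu
miR-532-3p: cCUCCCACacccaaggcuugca
miR-188-5p: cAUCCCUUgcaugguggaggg
miR-188-3p: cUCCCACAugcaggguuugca
miR-660-3p: aCCUCCUGugugcauggauua

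Among these 15, miR-501-3p and miR-502-3p had the same seed (AUGCACC), and miR-362-5p and miR-500b-5p had the same seed (AUCCUUG). The longest run shared by miR-500a-3p and miR-502-3p was 20 nt of 22, that of miR-500a-5p and miR-500b-5p 18 nt, and that of miR-500a-3p and miR-501-3p 13 nt. Outside the cluster, 2 microRNAs of the RefSeq table shared a seed with a member. These were miR-329-3p, with the seed of miR-362-3p (ACACACC), and miR-6866-3p, with the seed of miR-188-5p (AUCCCUU). The hairpins mir-329-1 and mir-329-2 had a mean of 0.104 scaled reads over the rescue libraries, and mir-6866 had 7.50.

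A value is given in scaled reads, which are read counts multiplied by a factor per library that the authors had set. Mock library a and the dCTT library hold unscaled counts, and whole reads were recovered for the others. The hairpin tables do not separate the 5p from the 3p arm. The reads of mir-500a and mir-502 stood in a ratio of 0.964 to 1.09 in all 15 rescue libraries (11 against 11 reads in C352A replicate 2, 232 against 226 in P351A replicate 2). Their counts were thus nearly equal in each library, and their 3p products differ little. Whether the same reads were counted for both was not tested, so the value of either alone is uncertain. Counts of members below take them as 2, and the count with both as 1 signal follows where it differs.

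Depth, meaning the recovered reads of all hairpins together, ranged over mock from 146023 to 587214, over WT from 660126 to 1470755 and over C352A from 199133 to 1023184. The P351A libraries were deeper (1666688 to 2175294), and those with ALA held 1191542 to 1941805. The stem cell hairpin mir-373 had no read in any of the 6 P351A and P351A + ALA libraries, against 1038 to 5176 scaled reads in the other 9. These 6 libraries and the other 9 therefore differ in a way that the labels do not describe. In comparisons of P351A or P351A + ALA with mock, WT or C352A, the change in DGCR8 and this split cannot be told apart. The hairpin mir-373 was not among the 294 listed for the parental and dCTT libraries, all with 50.7 scaled reads or more in the higher library. Which set of rescue libraries is nearer to those cells was not tested. WT replicate 1 was above the other WT libraries in every member but mir-500b. Of the fixed colon epithelium markers, 7 of 7 were listed, with a sum of 665 to 2856 scaled reads over the rescue libraries. Of the markers of other cell types, 8 of 13 were listed, with a sum of 704 to 2320 in the libraries with mir-373 reads and 356 to 766 in the other 6. The liver marker mir-122 was at 0 in all mock, C352A and P351A + ALA libraries, the myeloid marker mir-223 in all P351A and P351A + ALA libraries, and the muscle markers mir-133a-1 and mir-133a-2 in all mock and WT libraries. Replicates of each group differed by more than sampling noise (chi-square of 3.98 to 198 per degree of freedom), so each counts as 1 sample. Whether they were separate cultures is not labelled, and the p-values then measure only how far these libraries spread, possibly for technical reasons.

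Every listed member was lower in the library without the CTT domain. The hairpin mir-501 had 2401 scaled reads in the parental library and 33 reads in the dCTT library, a ratio of 72.8 (95% interval 51.7 to 106). The value of mir-500a was 1622 against 17, a ratio of 95.4 (59.5 to 164), and that of mir-502 1529 against 16, a ratio of 95.5 (58.7 to 167). For mir-532 the values were 1002 and 13, a ratio of 77.1 (45.0 to 145), and for mir-660 they were 527 and 6, a ratio of 87.8 (40.2 to 240). All 5 intervals overlapped, so these libraries did not separate the members from each other. The hairpin mir-362 had 66.1 scaled reads in the parental library and no read in the dCTT library, which makes it at least 22.0-fold higher, taking a floor of 3 reads in that library.

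The 5 members with dCTT reads had a median ratio of 87.8, and all 281 hairpins with dCTT reads a median of 50.2. Past 2-fold were 6 of the 6 listed members, against 91.5% of all 294 hairpins. All 294 had 50.7 scaled reads or more in the higher of these libraries, so hairpins low in both are absent. The hairpin mir-362 is listed through its parental value alone. Its lower bound and both shares past 2-fold therefore depend on what was listed. On the log2(value + 1) scale the 5 ratios were 6.14 to 6.49 (all hairpins, 5.54). They were 1.74 to 2.09 after median centring of each library (all, 1.13) and 1.90 to 2.29 with equal totals (all, 1.39). The recovered reads of all hairpins summed to 5122793 in the parental library and 168798 in the dCTT library. With 1 library of each kind there was no test, and the intervals cover counting error only. Because the libraries are bulk samples, fewer cells that make a microRNA and fewer copies per cell cannot be told apart.

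**Figure D1:**
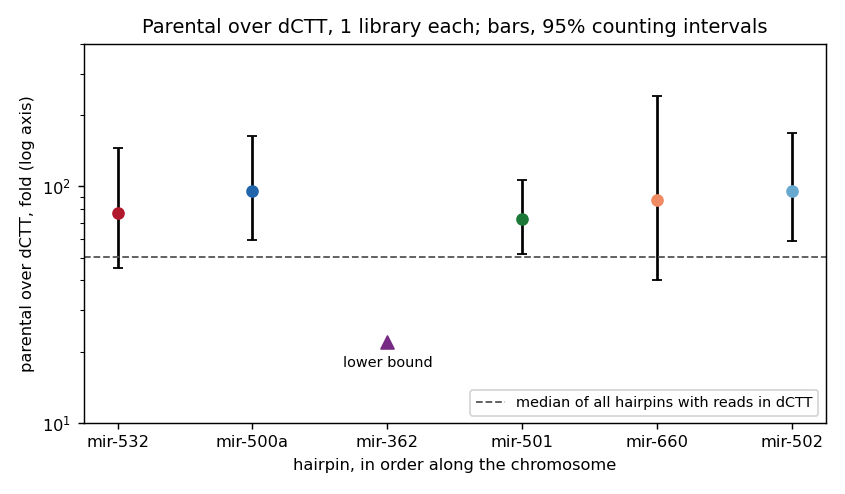
Ratio of the parental to the dCTT library (log axis, fold) for the 6 listed members in order along the chromosome, with 95% counting intervals; the triangle is a lower bound. The 5 ratios lie between 72.8 and 95.5, above the dashed line at the median of all hairpins with dCTT reads (50.2), though the intervals of mir-532 and mir-660 cross it.

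In the rescue libraries the members fell into 3 patterns. The hairpin mir-532, and by its group means mir-660, was highest in the P351A libraries with or without ALA. By group means, mir-500a and mir-502 were lowest in C352A, and mir-501 was lowest in P351A + ALA. This was on the authors' scale, and for mir-500a and mir-502 it depended on the scaling. With equal totals their changes in C352A against WT were 0.095 and 0.15. In P351A + ALA against WT they were below 0 in all 16 alternatives (-1.20 to -0.68 and -1.20 to -0.63). The hairpins mir-188, mir-362 and mir-500b were at a few reads. Where all libraries of a group lie above or below those of another, this is described below for each member. How many of all hairpins separate in this way is not given here, so it marks no member out.

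The hairpin mir-532 had 121, 80.5 and 55.1 scaled reads in mock libraries a, b and c, and 215, 102 and 97.0 in the WT libraries. It had 47.4, 31.1 and 28.1 in C352A, 404, 464 and 427 in P351A, and 412, 428 and 372 in P351A + ALA. The C352A libraries were below all others, the mock and WT libraries overlapped, and the 6 P351A and P351A + ALA libraries were above all others and overlapped each other. The group means were 85.5 ± 33.2 in mock, 138 ± 66.7 in WT, 35.5 ± 10.4 in C352A, 432 ± 30.6 in P351A and 404 ± 29.04 in P351A + ALA (SD, n = 3).

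The hairpin mir-660 had 105, 74.0 and 80.2 scaled reads in mock, 361.6, 140 and 160 in WT and 51.9, 73.2 and 40.8 in C352A. It had 308, 416 and 318 in P351A and 423, 563 and 458 in P351A + ALA. Every WT library was above every mock library, and every P351A + ALA library above every P351A library, but WT replicate 1 lay within the P351A range. The means were 86.4 ± 16.4, 220 ± 122.7, 55.3 ± 16.5, 347 ± 59.9 and 481 ± 72.9 in mock, WT, C352A, P351A and P351A + ALA (SD, n = 3).

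The hairpin mir-501 had 138, 158 and 125 scaled reads in mock, 205, 94.8 and 81.3 in WT and 86.2, 62.1 and 40.8 in C352A. It had 104, 113 and 67.8 in P351A and 51.5, 51.7 and 21.5 in P351A + ALA, where 28 to 48 reads lie behind each value. The P351A + ALA libraries were below all P351A, WT and mock libraries and overlapped those of C352A. The means were 140 ± 16.3 in mock, 127 ± 68.1 in WT, 63.0 ± 22.7 in C352A, 94.8 ± 23.8 in P351A and 41.6 ± 17.4 in P351A + ALA (SD, n = 3).

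The hairpin mir-500a had 84.0, 99.8 and 72.7 scaled reads in mock, 171, 82.7 and 89.9 in WT and 47.8, 24.4 and 43.6 in C352A. It had 80.2, 94.0 and 77.6 in P351A and 56.9, 64.3 and 41.5 in P351A + ALA. Every C352A library was below every mock, WT and P351A library, and the mock, WT and P351A ranges overlapped. For mir-502 the C352A libraries (24.4 to 46.5) were again below those of mock (72.7 to 93.4), WT (75.8 to 167) and P351A (76.6 to 91.6). With ALA it had 40.0 to 59.7.

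The hairpin mir-188 had 3, 0 and 0 reads in mock, 9, 2 and 4 in WT, 4, 0 and 1 in C352A, 4, 9 and 1 in P351A and 9, 20 and 8 in P351A + ALA. Its 37 reads in P351A + ALA were the most of any group, and on the authors' scale these 3 libraries (6.15 to 23.0) were above the P351A libraries (0.488 to 3.65). The hairpin mir-362 had 12 reads over the mock libraries, 29 in WT, of which 22 were in replicate 1, 12 in C352A, 31 in P351A and 34 in P351A + ALA. The hairpin mir-500b had 14 reads in all 15 libraries together, with 0 to 4 in each. The test below required a mean of at least 10 scaled reads across all rescue libraries. Of the 8 members 5 passed this filter (mir-532, mir-660, mir-501, mir-500a and mir-502), and these 3 did not.

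Comparisons were tested with limma on log2(value + 1) over 336 hairpins. A fold change is on that scale, on which changes of low hairpins appear too small, and is given with its standard error. The words "rose" and "fell" are kept for changes with an adjusted p under 0.05, by Benjamini and Hochberg's method over all hairpins tested. The comparisons share libraries, so they are not independent of each other.

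Rescue with wild-type DGCR8, which asks what the restored protein returns, was accompanied by higher mir-660. The change of mir-660 against mock was 1.22 ± 0.36 (limma adjusted p = 0.00675). The other 4 tested members ranged from -0.26 ± 0.41 for mir-501 to 0.65 ± 0.36 for mir-532 and did not pass (adjusted p 0.114 to 0.599). Of all hairpins tested 55.7% rose, with a median change of 1.13, set beside 1 of 5 members. The call of mir-660 was lost when libraries were centred on their median hairpin (adjusted p = 0.0797), with edgeR and TMM factors (0.995) and with DESeq2 (0.400), and turned to -0.21 with equal totals. In these 4 settings mir-501 fell (-0.97 to -1.70, adjusted p at most 0.0162). With equal totals mir-532, mir-500a and mir-502 fell too (-0.78, -1.08 and -1.11, limma adjusted p at most 0.0179). With edgeR and TMM factors mir-500a and mir-502 fell as well (-0.88 and -0.90, edgeR adjusted p at most 0.0158). The split of all hairpins moved too, from 187 that rose and 25 that fell to 67 and 109 with edgeR and TMM factors. With equal totals 54 rose and 126 fell.

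By contrast, 20 of the 20 tested hairpins of a fixed list of other intronic microRNAs rose in WT against mock, with a median of 2.07 on the authors' scale. Their lowest and highest changes were 1.18 ± 0.42 for mir-33b and 3.901 ± 0.75 for mir-33a, which lie in genes of sterol regulation. Of the other chromosome X hairpins, 15 of the 19 tested rose and 1, mir-6894, fell (-1.37 ± 0.56, adjusted p = 0.0416), with a median of 1.78 and the highest value for mir-542 (4.48 ± 0.60). The median of the 5 cluster members was 0.35. With equal totals 10 of the 20 intronic hairpins rose, with edgeR and TMM factors 12, with DESeq2 15 and with median centring 19. Of the 19 on chromosome X, 7, 8, 10 and 11 rose in the same settings. These lists are descriptions, and the difference between them and the cluster was not tested.

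The C352A form gave lower values of mir-532, mir-660, mir-500a and mir-502 than WT. The changes were -1.86 ± 0.36 for mir-532 (limma adjusted p = 0.00015), -1.88 ± 0.36 for mir-660, -1.52 ± 0.34 for mir-500a and -1.47 ± 0.34 for mir-502. That of mir-501 was -0.94 ± 0.41 and did not pass (adjusted p = 0.0531), though it did with the replicate number as a block over all numbered groups (-0.94, adjusted p = 0.0151, or 0.0476 in a fit of these 2 groups alone, added after seeing the data), so that 5 of 5 fell there. The pairing behind this block was taken from these same data and has no label behind it. The share of all hairpins that fell was 65.5%, with a median of -1.76, so 4 of 5 members (3 of 4 signals) is close to the background. With libraries centred on their median hairpin or scaled to equal totals, limma called 0 of the 5, and 0 were at an unadjusted p under 0.05. Of all 336 hairpins, 86 rose and 122 fell with median centring, and 97 and 99 with equal totals. In those settings mir-501 had positive changes (0.49 and 0.68), as it did with edgeR and TMM factors (1.02, adjusted p = 0.0158) and with DESeq2 (0.79, adjusted p = 0.044). Of all hairpins, 0 rose and 220 fell on the authors' scale, against 111 and 73 with edgeR and TMM factors.

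Against mock, C352A gave lower values of mir-532 (-1.21 ± 0.36, limma adjusted p = 0.0282), mir-500a (-1.17 ± 0.34, 0.0267) and mir-502 (-1.14 ± 0.34, 0.0289). The values of mir-501 (-1.20 ± 0.41, adjusted p = 0.0577) and mir-660 (-0.66 ± 0.36, 0.168) did not pass. These are 3 of 5 members (2 of 4 signals). Of all hairpins tested 14.3% fell, and the median was -0.66. The calls were lost under 9 or 10 of the 16 alternatives, among them median centring, no filter, edgeR with TMM factors, DESeq2, and leaving out mock library a or b or C352A replicate 2 or 3. None of these changed the direction of mir-532, mir-500a or mir-502. Of all hairpins, 2 rose and 48 fell on the authors' scale, and 13 and 5 with edgeR and TMM factors.

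In P351A the hairpin mir-532 rose against WT by 1.74 ± 0.36 (limma adjusted p = 0.000573), in a comparison in which few hairpins rose on the authors' scale. It was 1 of 5 tested members to rise, against 3.27% of all hairpins, while 51.2% fell with a median of -0.95, and it stood at percentile 98.8 of all changes. The change of mir-660 was 0.77 ± 0.36 (adjusted p = 0.0743). It passed with equal totals (1.52), median centring (1.77), DESeq2 (1.81) and edgeR with TMM factors (2.27), and without WT replicate 1, the library with the highest values (1.198, adjusted p = 0.00388). The changes of mir-500a (-0.37 ± 0.34), mir-502 (-0.33 ± 0.34) and mir-501 (-0.33 ± 0.41) did not pass. The rise of mir-532 held in all 16 alternatives (1.54 to 3.24, adjusted p at most 0.00445). The directions of mir-500a, mir-501 and mir-502 depended on the scaling, with edgeR and TMM factors giving 1.13, 1.19 and 1.16, so that all 5 members rose there. With those factors 137 of all hairpins rose and 60 fell, against 11 and 172 on the authors' scale.

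Most other hairpins of the same chromosome or of introns that changed in P351A against WT on the authors' scale fell. Of the tested chromosome X hairpins outside the cluster, 0 rose and 12 of 19 fell by limma, with a median of -1.37. Their highest value was 0.56 ± 0.49 for mir-19b-2 (limma adjusted p = 0.348) and their lowest -2.88 ± 0.41 for mir-224. At an unadjusted p under 0.05 the number above WT was also 0, by edgeR with TMM factors it was 7 (with 3 below) and by DESeq2 4 (with 7 below). Of the other intronic hairpins, 3 of 20 rose and 14 fell, from 0.82 ± 0.27 for mir-107 to -3.12 ± 0.28 for mir-27b. With edgeR and TMM factors 5 of these 20 rose and 5 fell, with median centring 3 and 5, and with equal totals or DESeq2 3 and 7.

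Against mock, both mir-532 (2.39 ± 0.36, limma adjusted p = 4.72e-05) and mir-660 (2.00 ± 0.36, 0.000239) rose in P351A, where 22.6% of all hairpins rose and the median change was -0.03. The changes of mir-500a (-0.02 ± 0.34), mir-502 (-0.01 ± 0.34) and mir-501 (-0.59 ± 0.41) did not pass. With equal totals these 3 fell (-0.71, -0.70 and -1.28, limma adjusted p at most 0.0442). The calls of mir-532 and mir-660 held in all 15 alternatives (1.70 to 2.68 for mir-532 and 1.31 to 2.28 for mir-660). Of all hairpins, 76 rose and 87 fell on the authors' scale, and 105 and 76 with edgeR and TMM factors. With equal totals 55 rose and 164 fell.

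On the authors' scale, the comparison of the 2 mutant forms had the largest changes of mir-532 and mir-660 among the 8 comparisons. With edgeR and TMM factors the change of mir-532 was larger against WT, and with median centring that of mir-660 was larger against mock. In P351A against C352A, mir-532 rose by 3.60 ± 0.36 (limma adjusted p = 4.05e-07) and mir-660 by 2.66 ± 0.36 (1.165e-05), and both calls held in all 16 alternatives. The change of mir-532 was at percentile 99.7 of all hairpins. The hairpins mir-500a (1.15 ± 0.34, adjusted p = 0.0102) and mir-502 (1.13 ± 0.34, 0.0113) rose too, but lost the call with other scalings and without C352A replicate 2 (mir-502 also without P351A replicate 2). The change of mir-501 was 0.61 ± 0.41 (0.221). That made 4 of 5 members (3 of 4 signals), against 36.9% of all hairpins that rose. All hairpins split into 124 that rose and 47 that fell, and with edgeR and TMM factors into 93 and 77.

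Addition of ALA to P351A was accompanied by lower mir-501, while on the authors' scale most hairpins that moved went up. The change of mir-501 was -1.24 ± 0.41 (limma adjusted p = 0.0198), at percentile 2.38, and 1 of 5 members fell against 2.98% of all hairpins, while 44.6% rose with a median of 0.81. None of the 5 tested members rose by limma, with 0 at an unadjusted p under 0.05 and 0 by edgeR with TMM factors or DESeq2. The changes of mir-500a and mir-502 were both -0.64 ± 0.34 (adjusted p = 0.124), that of mir-532 was -0.09 ± 0.36 (0.857) and that of mir-660 0.47 ± 0.36 (0.287). Without the filter on low values, mir-188 was at 2.18 ± 0.73 (limma unadjusted p = 0.00752, adjusted p = 0.0563), on the few reads given above. All 6 libraries of this comparison lack mir-373 reads, so that split does not enter it. The call of mir-501 was lost without the filter (adjusted p = 0.0511), without P351A replicate 1 (0.0667) or 2 (0.0767), and without P351A + ALA replicate 3 (0.108), which had the lowest value. With median centring, equal totals, edgeR with TMM factors or DESeq2, mir-532, mir-500a and mir-502 fell as well, and mir-660 had a negative change, which passed with edgeR (-0.72, adjusted p = 0.0175) and with median centring (-0.66, adjusted p = 0.0391). With edgeR and TMM factors 55 of all hairpins rose and 121 fell, against 150 and 10 on the authors' scale. Median centring gave 45 and 105, equal totals 74 and 61, and DESeq2 81 and 80. The hairpin mir-320a, which is made without Microprocessor, was at 72183 to 77467 scaled reads in P351A and 88662 to 95031 in P351A + ALA, and the part of the scaling in these values was not tested.

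Against WT, the cluster moved in both directions in P351A + ALA. The hairpins mir-532 (1.64 ± 0.36, limma adjusted p = 0.00312) and mir-660 (1.25 ± 0.36, 0.0148) rose, which is 2 of 5 members (2 of 4 signals) against 13.7% of all hairpins. The hairpins mir-501 (-1.57 ± 0.41, 0.00969), mir-500a (-1.01 ± 0.34, 0.0331) and mir-502 (-0.98 ± 0.34, 0.0382) fell, which is 3 of 5 (2 of 4 signals) against 20.2%. The median of all hairpins was -0.22, and 46 rose and 68 fell (91 and 57 with edgeR and TMM factors). The call of mir-532 held in all 16 alternatives and that of mir-501 in 15. Only with the 2 groups alone in the fit was mir-501 short of the threshold (adjusted p = 0.0537). The hairpin mir-660 lost its call in 4 alternatives (adjusted p at most 0.0847), and mir-500a and mir-502 in 6 and 7, among them without WT replicate 1 (-0.68 and -0.63).

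**Figure D2:**
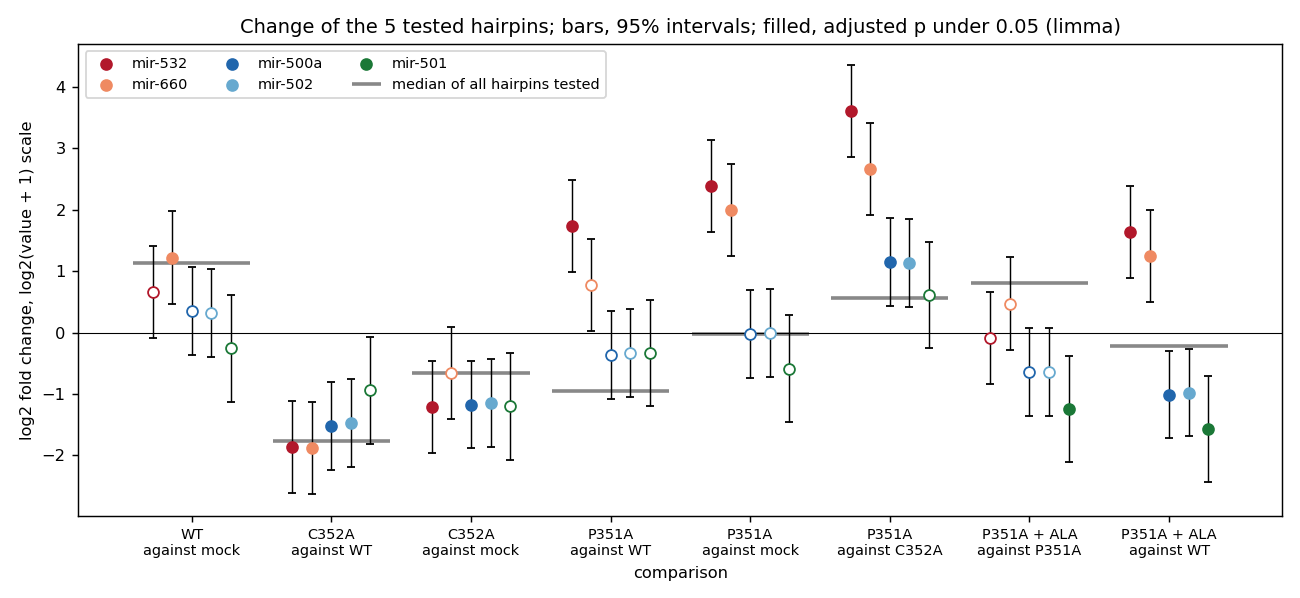
Log2 fold changes of the 5 tested hairpins in 8 comparisons, with 95% intervals; filled points passed an adjusted p under 0.05 and the grey line is the median of all hairpins tested. In the 4 comparisons of P351A or P351A + ALA with mock, WT or C352A, mir-532 lies highest and mir-660 next, and in P351A + ALA against P351A mir-501 lies lowest.

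A ratio between 2 hairpins of the same library does not depend on how the library was scaled. The ratio of mir-532 to mir-501 reads was 0.394 in the dCTT library and 0.417 in the parental library. It was 0.877, 0.51 and 0.44 in mock, 1.05, 1.07 and 1.19 in WT and 0.55, 0.50 and 0.69 in C352A. It was 3.88, 4.12 and 6.29 in P351A and 8, 8.29 and 17.3 in P351A + ALA. The WT, P351A and P351A + ALA libraries did not overlap each other, in that rising order, and those of mock and C352A lay below WT and overlapped.

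The same limma fit on the log2 difference from mir-532 in each library tested these ratios (335 hairpins). In P351A against WT, mir-501 changed relative to mir-532 by -2.07 ± 0.36 (limma adjusted p = 2.752e-05), mir-500a by -2.11 ± 0.34, mir-502 by -2.07 ± 0.34 and mir-660 by -0.96 ± 0.32 (0.00735). Since mir-532 had one of the highest changes, 97% of all hairpins were below it in this comparison, and 4 of 4 members (3 of 3 signals) is near that background. Against C352A all 4 were below too (96.4% of all hairpins). There mir-501 was at -2.99 ± 0.36 and mir-660 at -0.94 ± 0.32, whose call was lost without C352A replicate 2 (adjusted p = 0.0701). Against mock, mir-501 (-2.98 ± 0.36), mir-500a (-2.41 ± 0.34) and mir-502 (-2.40 ± 0.34) were below, with 87.2% of all hairpins, while mir-660 was at -0.39 ± 0.32 (adjusted p = 0.243, 95% interval -1.06 to 0.27).

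In P351A + ALA the ratios moved on, though against P351A only that of mir-501 passed relative to mir-532. Against WT the change of mir-501 relative to mir-532 was -3.21 ± 0.36 (limma adjusted p = 2.38e-07). The changes of mir-500a and mir-502 were -2.65 ± 0.34 and -2.62 ± 0.34, and 78.5% of all hairpins were below mir-532, but mir-660 did not pass (-0.40 ± 0.32, adjusted p = 0.249, interval -1.06 to 0.27). Against P351A the change of mir-501 was -1.15 ± 0.36 (adjusted p = 0.0145), against 2.69% of all hairpins below. The changes of mir-500a (-0.54 ± 0.34) and mir-502 (-0.55 ± 0.34) did not pass. The call of mir-501 was lost without P351A replicate 1 or 2 and without P351A + ALA replicate 3 (-0.80, adjusted p = 0.0838).

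The other rescues showed smaller shifts. In WT against mock, mir-501 changed by -0.91 ± 0.36 relative to mir-532 (limma adjusted p = 0.0446, with 12.8% of all hairpins below), and in C352A against WT by 0.92 ± 0.36 (adjusted p = 0.0437, with 29.9% above). The first call was lost with no filter, without mock library b or c and without any 1 of the WT libraries, and the second without any 1 of its 6 libraries. In C352A against mock 0 of the 4 members passed by limma, and 0 were at an unadjusted p under 0.05, where 13.4% of all hairpins passed in either direction. The changes there were 0.01 ± 0.36 for mir-501 and 0.55 ± 0.32 for mir-660 (unadjusted p = 0.0993, the smallest of the 4).

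As a share of the summed reads of the cluster, mir-501 led in parental cells (33.6%) and dCTT cells (38.8%), where mir-532 had 14.03% and 15.3% and mir-660 7.37% and 7.06%. In the mock libraries mir-501 had 25.4% to 31.0% and mir-532 13.4% to 22.3%. In WT the largest share was that of mir-660, at 27.7% to 31.1%, against 15.4% to 18.8% for mir-501. In C352A mir-660 had 18.2% to 33.7%, mir-501 19.9% to 30.3% and mir-532 13.7% to 16.6%. In P351A mir-532 had 39.0% to 44.0%, mir-660 31.4% to 35.0% and mir-501 6.995% to 10.6%. In P351A + ALA mir-660 had 41.3% to 48.4%, mir-532 35.4% to 40.3% and mir-501 2.27% to 5.03%.

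The parental and dCTT libraries had like shares although the reads of the 6 listed members summed to 11137 in the first and 85 in the second. The WT libraries, which carry intact DGCR8 in dCTT cells, did not have the shares of the parental library. The parental ratio of mir-501 to mir-660 was 4.56, and the WT ratios were 0.568, 0.679 and 0.509. The tables were scaled separately, and this difference between a single library and 3 others was not tested. The cluster's part of all hairpin reads was 0.217% in the parental library and 0.0504% in dCTT. In mock it was 0.0863% to 0.108%, and WT (0.0442% to 0.0592%) and C352A (0.0478% to 0.0617%) lay below. It was 0.116% to 0.135% for P351A and 0.0634% to 0.081% once ALA was added.

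Across the 15 rescue libraries the members did not vary as 1 unit. The log2 values of mir-532 and mir-660 had a Pearson r of 0.952 (Spearman rho 0.90), those of mir-500a and mir-501 0.733 (0.811), and those of mir-532 and mir-501 -0.109 (-0.025). These are descriptions over libraries that share scaling factors and fall into groups, with the 6 P351A and P351A + ALA libraries apart for mir-532. Of 158 hairpins outside the cluster with a mean of 100 scaled reads or more, the 5 most like mir-532 were mir-31 (r 0.948), mir-101-2 (0.946), mir-101-1 (0.946), mir-107 (0.944) and mir-103a-1 (0.943). The 5 most like mir-501 were mir-7974 (0.836), mir-4286 (0.699), mir-141 (0.658), mir-100 (0.656) and mir-1180 (0.605). The pairs mir-101-1 with mir-101-2 and mir-107 with mir-103a-1 share mature sequence or nearly so and are not separate cases.

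The patterns did not follow the order along the chromosome. The hairpin mir-660, which went with mir-532, stands between mir-500b and mir-502, 10.1 kb from the start of mir-532, and its neighbour mir-502 went with mir-500a, whose counts it nearly equals. Because the series title asks about the apical loop, the 7 member hairpins in the RefSeq table were folded with RNAfold. The hairpin mir-501 is not among them, so no loop is given for it. The terminal loop was 13 nt in mir-532, 11 in mir-660, 9 in mir-500a, mir-500b and mir-502, and 5 in mir-188 and mir-362, against a median of 6 over 1560 human hairpins. The motif UGU, searched on the hairpin strand within the terminal loop and 3 nt on each side, was in 2 of the 7 (mir-500a and mir-660), which is 28.6%, against 24.4% of all hairpins. A match is a description of the letters and no sign of binding.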

How the data were processed

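Small RNA libraries were made with a TruSeq kit after gel selection of short RNA, per the labels' protocols. The submitters' processing notes name cutadapt 1.14, Bowtie2 and hg38 (GRCh38); how reads were assigned and libraries scaled is not given in these sources. Per the deposited tables' values, the dCTT library and mock library a hold raw read counts. The remaining columns are signal: the authors had multiplied the read counts of each library by a factor before they deposited them. All values (100%) were whole numbers of that factor within 0.001 of a read, so whole reads were recovered. In the parental library the step was taken as its smallest value divided by 43. Of the rescue hairpins, 1165 of 1282 matched a RefSeq symbol.

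Libraries were grouped by genotype label. Mock columns match their group but not its replicate numbers and are called a, b and c. Hairpins with a mean of 10 scaled reads or more over the 15 rescue libraries were tested with limma 3.58.1 (R 4.3.3) on log2(value + 1), 2-sided, with eBayes and a trend, in 1 fit with group as its only term; the plan had left the test open to the unit. Same-number libraries of WT and C352A deviated together (r 0.185 to 0.425 in all 3 pairs), but WT replicate 2 with C352A replicate 3 also had 0.273. Their numbers were taken to pair them from the data, with no label behind it. In the other 5 pairs of groups not all same-number pairs passed 0.1 (median over all 18 pairs -0.02), and mock could not be blocked. The 36 different-number pairs had a median of -0.013 and reached 0.292. Benjamini-Hochberg adjustment covered all 336 hairpins. The fit was tested on simulated data. Alternatives used edgeR 4.0.16 and DESeq2 1.42.0 on whole reads, other scalings, filters and pseudocounts, and left out libraries. RNAfold was of ViennaRNA 2.7.2. The values of all 8 members, and of the hairpins most like mir-532 and mir-501 or highest and lowest in the other lists, were named by rule. The members, lists and rules were chosen with earlier results of these data known, so none of them is independent support. Parental over dCTT intervals are exact (Clopper-Pearson) 95% binomial intervals of the read ratio on the authors' scale, and cover counting error only.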

Additional observations from a re-analysis of the deposited data

How the results depend on the processing

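Counts of called members moved most with the scaling. With median centring they were 0 in C352A against WT, where 86 of all 336 hairpins tested rose and 122 fell. C352A against mock had 0 (13 and 3 of all hairpins). In the same setting P351A had 2 against WT (68 and 74) and 2 against C352A (86 and 78). P351A + ALA against P351A had 5 (45 and 105). Equal totals gave 4 in WT against mock (54 of all hairpins rose and 126 fell) and 0 in C352A against WT (97 and 99). With this scaling P351A had 2 against WT (48 and 91), 5 against mock (55 and 164) and 2 against C352A (65 and 105). P351A + ALA against P351A had 4 (74 and 61). The 4 in WT against mock all fell, and of the 5 in P351A against mock 2 rose and 3 fell. edgeR with TMM factors gave 3 in WT against mock, 1 in C352A against WT, 0 in C352A against mock, 5 in P351A against WT, 2 in P351A against C352A, 5 in P351A + ALA against P351A and 3 in P351A + ALA against WT. Of these, the 3 in WT against mock all fell, and the 1 in C352A against WT rose. The splits of all hairpins with edgeR and TMM factors stand with each comparison above. DESeq2 gave 1 in C352A against WT (96 of all hairpins rose and 96 fell) and 0 in C352A against mock (17 and 7). With DESeq2 P351A had 4 against WT (73 and 83) and 2 against C352A (74 and 91). P351A + ALA against P351A had 4 (81 and 80). No filter gave 0 in C352A against mock and in P351A + ALA against P351A, 3 in P351A + ALA against WT and 0 for ratios to mir-532 in WT against mock. A fit of the 2 compared groups alone gave 1 in P351A + ALA against WT. A fit of the 9 libraries with mir-373 reads, chosen after seeing the data, gave 0 in C352A against mock. With mir-660 as the reference, the ratios gave 3 in P351A + ALA against P351A.

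Leaving out 1 library gave 1 to 2 calls in WT against mock, 0 to 3 in C352A against mock, 1 to 2 in P351A against WT, 2 to 4 in P351A against C352A, 0 to 1 in P351A + ALA against P351A and 3 to 4 in P351A + ALA against WT. For ratios to mir-532 it gave 0 to 1 in WT against mock and in P351A + ALA against P351A, and 0 in C352A against WT.

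Directions changed as follows. Among calls of the main fit this concerned only mir-660 in WT against mock and mir-532, mir-500a and mir-502 in C352A against WT. Some changed values passed the threshold themselves. In WT against mock these were mir-532 (equal totals), mir-500a and mir-502 (equal totals and edgeR). In C352A against WT it was mir-501 (edgeR and DESeq2). In P351A against WT they were mir-500a and mir-502 (edgeR and DESeq2) and mir-501 (edgeR). In P351A + ALA against P351A it was mir-660 (median centring and edgeR). In WT against mock, mir-532, mir-500a and mir-502 were at -0.058, -0.36 and -0.39 (median centring), -0.78, -1.08 and -1.11 (equal totals, mir-660 -0.21), -0.64, -0.88 and -0.90 (edgeR) and -0.40, -0.63 and -0.64 (DESeq2). In C352A against WT, mir-500a, mir-501 and mir-502 were at 0.095, 0.68 and 0.15 (equal totals), 0.47, 1.02 and 0.52 (edgeR, mir-532 0.087) and 0.26, 0.79 and 0.30 (DESeq2), and mir-501 at 0.49 (median centring). In C352A against mock, mir-660 was at 0.065 (median centring). In P351A against WT, mir-500a, mir-501 and mir-502 were at 0.63, 0.67 and 0.67 (median centring), 0.37, 0.41 and 0.41 (equal totals), 1.13, 1.19 and 1.16 (edgeR) and 0.68, 0.73 and 0.71 (DESeq2). In P351A against mock, mir-500a and mir-502 were at 0.27 and 0.28 (median centring), 0.25 and 0.27 (edgeR) and 0.049 and 0.066 (DESeq2). In P351A against C352A, mir-501 was at -0.27 (equal totals) and -0.054 (DESeq2). In P351A + ALA against P351A, mir-660 was at -0.66 (median centring), -0.31 (equal totals), -0.72 (edgeR) and -0.40 (DESeq2). Without 1 library, mir-502 ranged from -0.018 to 0.55 in WT against mock, mir-501 from -0.59 to 0.077 and mir-502 from -0.55 to 0.0093 in P351A against WT, and mir-500a from -0.13 to 0.097 and mir-502 from -0.097 to 0.082 in P351A against mock. Relative to mir-532, mir-660 ranged from -0.31 to 0.23 in C352A against WT. In C352A against mock, mir-500a ranged from -0.25 to 0.25, mir-501 from -0.28 to 0.21 and mir-502 from -0.22 to 0.28, with -0.050 for mir-501 at pseudocount 10 and -0.51, -0.54 and -0.48 for mir-500a, mir-501 and mir-502 relative to mir-660. The causes were not tested.

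The replicate number as a block changed 1 of 10 counts of called members, C352A against WT from 4 to 5, through mir-501 (-0.94, adjusted p = 0.0151), and no other member call. Over all settings 755 of 968 member values kept their direction and side of the threshold, and 73 changed direction, some of which also lost or gained a call. Of the values that kept their direction, 90 lost and 36 gained a call, and 14 parental values with no test moved past their interval. Of the members, mir-188, mir-362 and mir-500b were limited by depth. Without the filter mir-188 passed in WT against mock (adjusted p = 0.0375), which rests on 15 against 3 reads.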
